A study of Mus musculus with 2 samples.

Results

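Cathepsins are proteases of the lysosome, and cystatin C is a secreted inhibitor of the cysteine proteases among them. The 10 genes described here were taken as a named list: the papain-family cysteine cathepsins Ctsb, Ctsc, Ctsh, Ctsl, Ctss and Ctsz, the aspartic protease Ctsd, the serine carboxypeptidase Ctsa, the asparaginyl endopeptidase legumain (Lgmn), and the inhibitor Cst3. They are 10 of the 31053 genes in the deposited matrix, and all 10 were detected in both libraries. Their levels were read in 5328 cells, each with at least 200 detected genes and at most 20% mitochondrial UMIs (unique molecular identifiers, which count captured transcripts).

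The study sorted cells from the cribriform plate, the perforated bone under the olfactory bulbs, taken with the bulbs and part of the nasal mucosa. One sample was pooled from 5 healthy mice and the other from 5 mice with autoimmune encephalomyelitis (EAE), an autoimmune attack on brain and spinal cord by which multiple sclerosis is modelled. All mice were wild-type C57BL/6J females 10 weeks old, and live cells were gated as Podoplanin+, CD31+ and CD45-, the gate for lymphatic endothelium. The labels do not say how EAE was induced or at which stage the mice were taken.

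The deposited matrix joins the samples and marks each cell only by a barcode suffix, 1 or 2, and no label ties a suffix to the healthy or the EAE pool. The suffixes are therefore called library 1 and library 2, and no difference below is a comparison of EAE with health. With 1 library per suffix there is no replicate and no test. The 95% intervals are exact Poisson intervals for levels, exact conditional binomial intervals for ratios and exact binomial intervals for shares, and they cover counting error only.

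Library 1 held 3406 kept cells with 25766058 UMIs and library 2 held 1922 with 20282053 UMIs, at medians of 7334 and 9782.5 UMIs per cell. The libraries shared 7 barcodes among kept cells. Markers of the labelled cell type were nearly absent: 7 lymphatic endothelial genes summed to 28.3 CPM (a gene's share of all UMIs of a library, scaled to 1000000) in library 1 and 6.90 CPM in library 2. The 7 microglia markers summed to 10540 and 3785 CPM, and microglia-like clusters held 91.0% and 89.2% of the kept cells. The values below are thus mostly those of cells with a microglial profile. All 7 microglia markers were lower in library 2 (Fcrls 2527 against 73.6 CPM, Tmem119 1216 against 808 CPM), and their part in the differences below was not tested.

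As background, cathepsins are made as inactive precursors, carried to the lysosome by mannose 6-phosphate receptors and activated there by acid and by one another. The papain-family members cut proteins at an active-site cysteine, and cystatins block that site. In antigen-presenting cells cathepsin S trims the invariant chain (Cd74) from class II molecules, and in microglia the lysosomal proteases also break down engulfed myelin and debris.

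Promoter windows are shown for the aspartic protease, the carboxypeptidase, the pair of proteases with the largest ratios between libraries, and the inhibitor, to set genes that differed between the libraries beside genes that did so by less than 1.5-fold. The windows run from 250 bases before to 50 after an annotated transcript start in RefSeq (GRCm38.p6), and each is written 5′ to 3′ on the gene's strand. Of the 10 genes, 8 matched the table, with 10 windows. Ctsb and Ctsh are named only. Capitals mark matches, on either strand, to TCACGTGA (the palindromic core of the lysosomal CLEAR element), CACGTG (the E-box, which lies inside TCACGTGA), an interferon regulatory factor type (GAAA, any 2 bases, GAAA) and TTCNNNGAA (a STAT type).
Ctsd, chr7:142387778-142388077, minus strand: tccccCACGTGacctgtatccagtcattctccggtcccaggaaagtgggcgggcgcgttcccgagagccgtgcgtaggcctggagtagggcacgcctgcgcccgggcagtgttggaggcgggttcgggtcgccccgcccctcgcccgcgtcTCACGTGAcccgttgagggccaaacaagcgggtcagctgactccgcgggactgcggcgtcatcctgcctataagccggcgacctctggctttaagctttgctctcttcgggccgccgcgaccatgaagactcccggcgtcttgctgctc
Ctsa, chr2:164833523-164833822, plus strand: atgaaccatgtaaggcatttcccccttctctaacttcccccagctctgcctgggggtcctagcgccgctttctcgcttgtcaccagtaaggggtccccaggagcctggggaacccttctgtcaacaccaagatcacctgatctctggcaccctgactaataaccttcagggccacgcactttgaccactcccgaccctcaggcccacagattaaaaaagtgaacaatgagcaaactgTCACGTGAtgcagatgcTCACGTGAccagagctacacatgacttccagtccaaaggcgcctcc
Ctss, chr3:95526536-95526835, plus strand: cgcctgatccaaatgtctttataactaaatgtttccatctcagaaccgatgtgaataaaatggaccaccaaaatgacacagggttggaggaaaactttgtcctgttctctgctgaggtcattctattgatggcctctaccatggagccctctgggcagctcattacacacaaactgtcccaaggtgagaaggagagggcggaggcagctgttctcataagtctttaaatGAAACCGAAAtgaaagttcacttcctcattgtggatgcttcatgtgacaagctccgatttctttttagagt
Ctsc, chr7:88277835-88278134, plus strand: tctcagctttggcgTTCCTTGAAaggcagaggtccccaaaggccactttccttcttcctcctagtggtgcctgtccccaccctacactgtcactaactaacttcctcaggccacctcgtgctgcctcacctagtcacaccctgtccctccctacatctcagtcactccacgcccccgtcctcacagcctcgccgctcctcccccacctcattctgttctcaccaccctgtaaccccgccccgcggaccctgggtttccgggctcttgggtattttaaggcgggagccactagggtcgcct
Cst3, chr2:148875463-148875762, minus strand: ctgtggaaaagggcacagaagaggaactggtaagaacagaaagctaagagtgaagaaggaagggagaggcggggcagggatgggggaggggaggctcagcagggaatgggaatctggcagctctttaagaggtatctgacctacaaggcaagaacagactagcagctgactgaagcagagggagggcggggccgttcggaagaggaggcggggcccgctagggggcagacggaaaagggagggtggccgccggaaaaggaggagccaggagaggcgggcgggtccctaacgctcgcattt

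TCACGTGA stood in the Ctsd window, starting 99 bases upstream of the transcript start, and in the second Ctsa window, starting 13 bases upstream. It occurs in 0.974% of the 32851 windows in the table. CACGTG alone, present in 7.15% of windows, was also found in the Ctsl window and in one Lgmn window. Ctsa, Ctsd, Ctsl and Lgmn are the 4 genes that differed by less than 1.5-fold between the libraries. Ctsa and Lgmn each had a further window with no match, and Ctsb and Ctsh had no window. The overlap was not tested. The Ctss window held the interferon regulatory factor type starting 21 bases upstream (3.44% of all windows), and the Ctsc window held TTCNNNGAA starting 236 bases upstream (8.3% of all windows). The Cst3 and Ctsz windows held none of the 4 motifs. A match describes letters in a window, and no binding was measured. The motifs were chosen with the levels known.

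The contrast between the libraries was that the inhibitor was lower in library 2 while 5 of the 6 papain-family proteases were higher. Cst3 stood at 45032 CPM (44950 to 45114) in library 1 and 9394 CPM (9352 to 9437) in library 2, which is 4.79-fold (4.77 to 4.82) lower in library 2. Cystatin C transcripts alone were 4.5% of all UMIs in library 1 and 0.939% in library 2. The difference ran through nearly all cells. The median cell had 442 Cst3 UMIs per 10000 in library 1 (10th to 90th percentile 228 to 680) and 85.8 in library 2 (42.2 to 163). In library 2, 98.4% of the cells lay below the 10th percentile of library 1, and 0.052% lay above its median. Nearly all cells still carried the transcript, 99.7% in library 1 and 99.2% in library 2.

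Cathepsin C, which activates granule serine proteases by removing dipeptides from their ends, had the largest ratio among the proteases. Ctsc was at 339.6 CPM in library 1 and 1155 CPM in library 2, 3.40-fold (3.32 to 3.48) higher in library 2. A Ctsc UMI was found in 82.8% of library 1 cells and 95.2% of library 2 cells. After each cell was thinned to 1000 UMIs, leaving out 87 and 15 shallower cells, the shares were 27.0% and 62.3%. A share of cells with a UMI follows the level at this depth and is not a second difference.

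Cathepsin S, which stays active at neutral pH, was at 4699 CPM in library 1 and 9489 CPM in library 2, a ratio of 2.02 (2.005 to 2.03). The median cell had 44.8 and 96.6 Ctss UMIs per 10000. Nearly all thinned cells had a Ctss UMI, 96.9% and 96.4%, a share too close to its ceiling to show a difference. Of the library 2 cells, 94.3% were above the library 1 median for Ctss. The endo- and exopeptidase cathepsin B followed at 2088 and 3886 CPM, a ratio of 1.86 (1.84 to 1.88). The aminopeptidase cathepsin H was at 782 and 1443 CPM, a ratio of 1.85 (1.81 to 1.88). The carboxypeptidase cathepsin Z was at 1973 and 3358 CPM, a ratio of 1.70 (1.68 to 1.72). Between 88.2% and 90.7% of library 2 cells exceeded the library 1 median for Ctsb, Ctsh and Ctsz.

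The remaining 4 proteases differed little, and they include the non-papain enzymes. Legumain, which cuts after asparagine and also activates other cathepsins, was at 3358 CPM in library 1 and 3447 CPM in library 2, a ratio of 1.03 (1.02 to 1.04). Cathepsin A, which also stabilises lysosomal beta-galactosidase and neuraminidase, was at 692 and 664 CPM, a ratio of 0.960 (0.939 to 0.982). The papain-family endopeptidase cathepsin L was at 1917 and 1702 CPM, a ratio of 0.888 (0.876 to 0.900). Cathepsin D, the main aspartic protease of the lysosome, was at 8541 and 7406 CPM, a ratio of 0.867 (0.861 to 0.873). Cells of the libraries overlapped widely for these genes: 40.3% (Ctsd) to 51.7% (Lgmn) of library 2 cells were above the library 1 median.

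In all, 6 of the 10 genes were higher in library 2, beside 52.5% of the 13891 genes whose UMIs, added over the libraries, came to 20 or more. Past 1.5-fold, 5 genes were higher in library 2 (Ctsb, Ctsc, Ctsh, Ctss, Ctsz), beside 23.4% of all genes, and Cst3 was higher in library 1, beside 16.7%. The background in either direction was 40.1%. The median log2 ratio of library 2 over library 1 was 0.40 for the 10 genes and 0.04 for all genes. Among the 208 genes with a mean level at or above that of the lowest of the 10, 42.8% were past 1.5-fold higher in library 2 and the median was 0.47. Abundant genes as a whole thus lay as far toward library 2 as these 10 did.

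**Figure D1:**
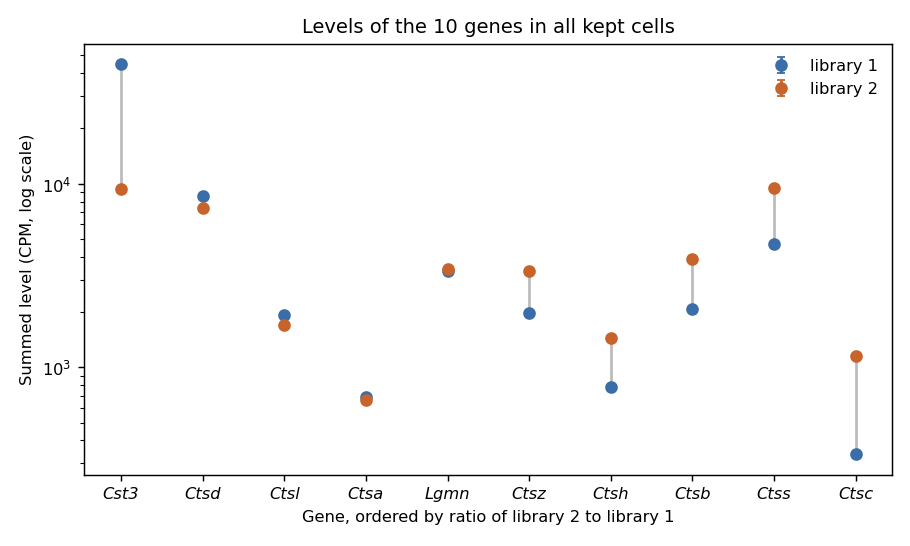
Level of each of the 10 genes in library 1 and library 2, in CPM on a log axis, with 95% Poisson intervals that are mostly smaller than the points. Cst3 is 4.79-fold lower in library 2, Ctsc, Ctss, Ctsb, Ctsh and Ctsz are 1.70-fold to 3.40-fold higher, and the other 4 nearly coincide.

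**Figure D2:**
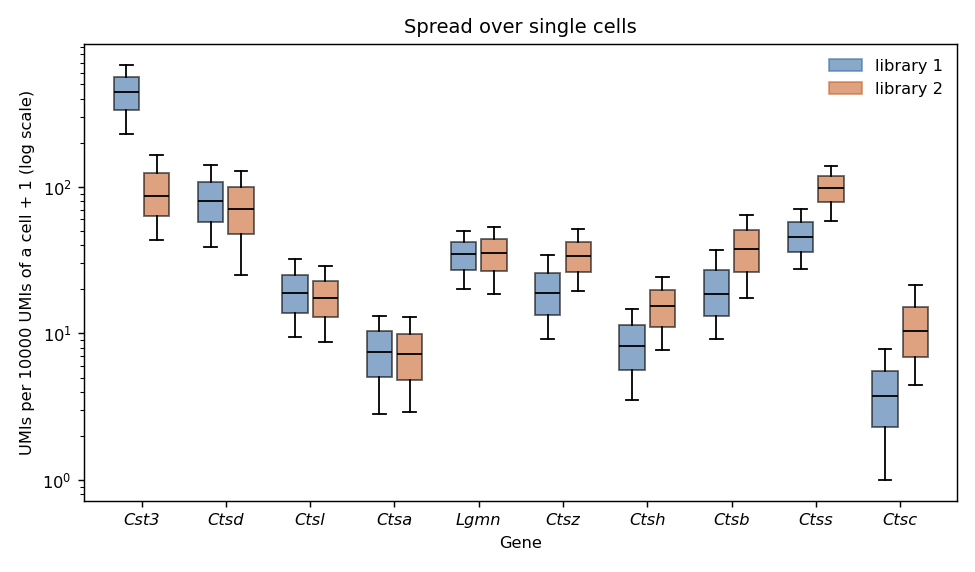
UMIs per 10000 in single cells of each library for each of the 10 genes, on a log axis with 1 added, drawn as the median (line), the quartiles (box) and the 10th and 90th percentiles (whiskers). The library 1 and library 2 whiskers do not meet for Cst3, and the boxes lie over one another for Ctsa, Ctsd, Ctsl and Lgmn.

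Cst3 UMIs outnumbered the summed UMIs of the papain-family cathepsins in library 1 and not in library 2. The 6 papain-family cathepsins took 1.18% of UMIs in library 1 and 2.1% in library 2. There were 3.82 Cst3 UMIs for each papain-family UMI in library 1 and 0.447 in library 2. These are ratios of transcripts and not of protein or activity, and cystatin C is secreted. The 9 proteases together took 2.44% and 3.26% of UMIs, and the median cell had 2.37% and 3.3%. Their makeup differed: Ctsd was 35.0% of protease UMIs in library 1 and 22.8% in library 2, while Ctss was 19.3% and 29.2%. Ctsc was 1.39% and 3.55% of protease UMIs.

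The same pattern was seen within the microglia-like cells, 3101 in library 1 and 1715 in library 2. Cst3 was 4.83-fold lower in library 2, and Ctsc was 3.63-fold, Ctss 2.05-fold, Ctsb 1.94-fold, Ctsh 1.90-fold and Ctsz 1.74-fold higher. Lgmn (1.04), Ctsa (0.979), Ctsl (0.903) and Ctsd (0.887) kept ratios near 1. Different clusters hold most of this class in each library, 0, 1, 2, 3 and 6 in library 1 and 7, 13, 14 and 15 in library 2. The last 4 also hold 13, 5, 21 and 3 cells of library 1. A cluster mostly of 1 library may be that library and not a cell state. Marker lists of other cell types moved with the difference. Monocyte markers summed to 3.46 CPM in microglia-like cells of library 1, with 2 of the 5 markers (Ly6c2, Ccr2, Plac8, Chil3, Vcan) at 0, and to 75.2 CPM with none at 0 in library 2. Over all kept cells Plac8 made up most of this sum, 7.995 against 70.9 CPM, while Ccr2 was at 2.13 and 0.592 CPM. In microglia-like cells the dendritic cell list was at 298 and 39.7 CPM, with 2 and 1 of 7 markers at 0, the platelet list at 49.8 and 4.81 CPM, with 1 of 3 at 0 in each, and the astrocyte list at 104 and 270.3 CPM, with none of 5 at 0. Over all kept cells, most of the dendritic sum came from Fscn1 (281 and 34.9 CPM). Gp9 made up most of the platelet sum (47.2 and 3.01 CPM) and Slc1a3 most of the astrocyte sum (100.1 and 253 CPM). The part of these lists was not tested. In microglia-like cells with no monocyte marker UMI (3042 and 1118 cells), an added check, Cst3 and the 5 cathepsins stayed past 1.5-fold in the same directions.

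A cluster of 43 library 1 cells had a macrophage-like profile, from the border macrophage markers, and its protease makeup differed from that of the microglia-like cells around it. Ctsc was at 1087 CPM against 332 CPM, 3.27-fold (2.99 to 3.58) higher. Ctsb was at 3488 against 2089 CPM, 1.67-fold (1.59 to 1.75) higher, and Ctsh was 1.42-fold higher. In contrast Cst3 was at 21171 against 46743 CPM, 2.21-fold (2.16 to 2.25) lower, and Ctsl was at 1205 against 1961 CPM, 1.63-fold (1.499 to 1.77) lower. Lgmn was 1.40-fold and Ctss 1.18-fold lower, while the intervals for Ctsd and Ctsz held a ratio of 1. These 43 cells also carried microglia markers, at 6534 CPM summed with none of 7 at 0, beside 1897 CPM of border macrophage markers, and their levels are given as those of the cluster. The clusters were defined without these 10 genes.

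Olfactory-neuron-like cells give the level that other cells' RNA and true low expression can reach together. In the 37 such cells of library 2, at a median of 11227 UMIs, Ctss was found in 27.0% of cells at 27.5 CPM, Ctsc in 8.11% at 6.35 CPM and Ctsh in 5.41% at 4.23 CPM. The ubiquitous lysosomal genes were more frequent, with Ctsb in 86.5% of these cells at 339 CPM and Ctsd in 83.8% at 108 CPM. Cst3 was at 220 CPM there. All 10 genes in microglia-like cells stood above these levels. The ensheathing-glia-like cells (36 and 59 cells) also carried microglia markers, at 7295 and 2852 CPM summed, so their cathepsin levels are not given as those of glia.

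Among microglia-like clusters of at least 50 cells of 1 library, 5 in library 1 and 4 in library 2, the levels of Ctsb, Ctsc, Ctsh, Ctss and Ctsz in every library 2 cluster were above those in every library 1 cluster. This was so for 13.4% of all genes. Cst3 was below in every library 2 cluster, as for 14.7% of all genes, with 40880 to 58274 CPM in library 1 and 8131 to 10474 CPM in library 2. Ctsa, Ctsd, Ctsl and Lgmn overlapped. Both shares are over 13891 genes, of which 208 had a mean level at or above that of the lowest gene described here. No share was taken among those 208, so how common such separation is among abundant genes was not tested.

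Within library 2 the clusters separated cathepsin C from most of the other genes. Cluster 14, with 88 library 2 cells and led by the proliferation genes Mki67 and Top2a, had the lowest Ctsd of the 4 clusters, 4244 CPM, while cluster 13, led by Apoc1, Saa3, Apoe and Lgals3, had the highest, 9045 CPM, a 2.13-fold range. Ctsa ran the same way, from 417 to 778 CPM, as did Ctsb, from 2903 to 4600 CPM, and Ctsl, from 1324 to 2025 CPM. Ctsh (1299 to 1600.5 CPM) and Cst3 (8131 to 10474 CPM) also ran from cluster 14 up to cluster 13. Ctss and Ctsz were lowest in cluster 14 as well, and Lgmn was lowest in cluster 7. Ctsc ran otherwise: cluster 14 had the highest level, 1856 CPM, and cluster 15, led by C4b and H2-Aa, the lowest, 981 CPM. In library 1 the highest level was at most 1.43-fold the lowest for each of the 10 genes. Cluster 1, with Gadd45b and Il1a among its leading genes, was lowest for all 10.

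**Figure D3:**
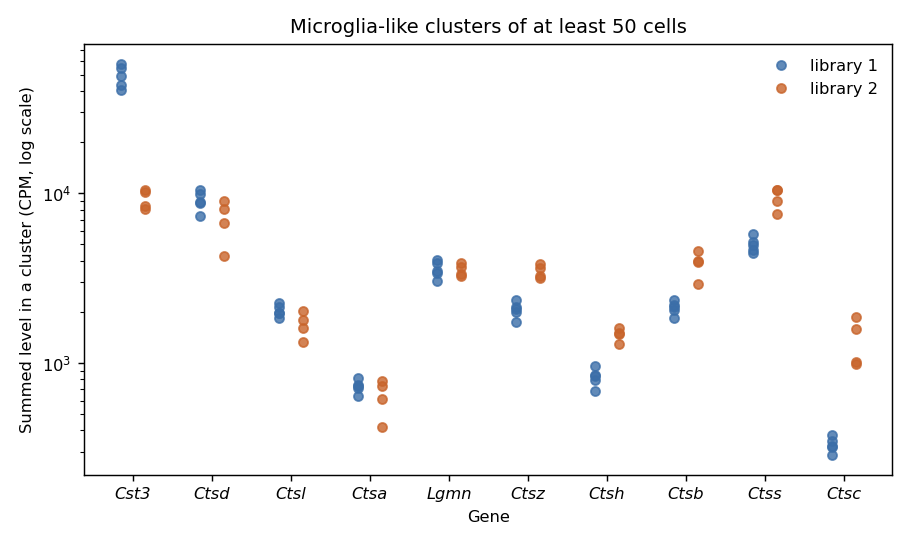
Level of each of the 10 genes in the microglia-like clusters of library 1 and library 2, in CPM on log axes, with each point a cluster of at least 50 cells of that library. The clusters of the libraries do not overlap for Cst3, Ctsb, Ctsc, Ctsh, Ctss and Ctsz.

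Class II molecules meet their peptides in the compartments where these proteases act, so the levels were read along class II transcripts, in bins of their summed UMIs per 10000. The bins are ranges and not cell types. In library 1, 2610 of the microglia-like cells had no such UMI and 46 had more than 20, and in library 2 the counts were 78 and 1258. Close to the limits at 5 and 20 lay 15 and 14 cells in library 1 and 44 and 106 in library 2. Ctss in library 1 was at 4686 CPM in cells with no class II UMI, 5071 CPM up to 5, 6514 CPM from 5 to 20, and 6991 CPM above 20. In library 2 it was between 9166 and 10070 CPM in all 4 bins, so library 2 cells with no class II UMI (9706 CPM) were above library 1 cells with the most. Cst3 went in opposite directions, from 47496 down to 35549 CPM with class II in library 1 and from 7661 up to 10129 CPM in library 2. Ctsb also differed in direction, from 2052 to 2534 CPM in library 1 and from 5109 to 3794 CPM in library 2. Ctsc was higher with class II in each, from 317 to 542 CPM and from 963 to 1242 CPM.

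**Figure D4:**
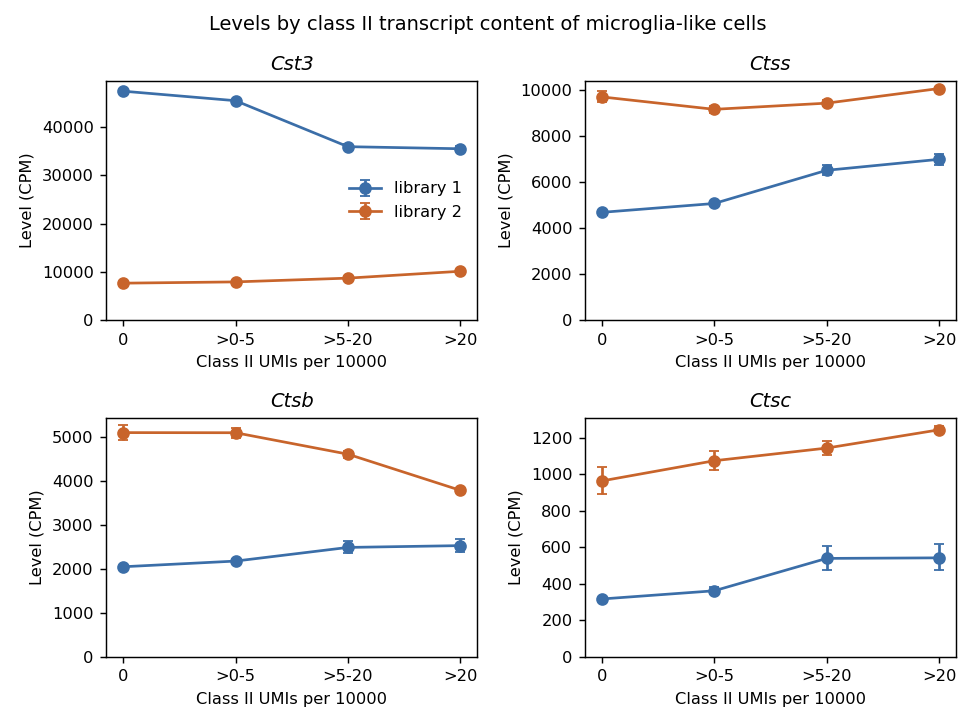
Levels of 4 of the genes in microglia-like cells of each library, in CPM, by bin of class II transcripts per 10000 UMIs, with 95% Poisson intervals. Library 2 is separated from library 1 in every bin, and Cst3 and Ctsb run in opposite directions in the libraries.

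Early response and heat shock transcripts, known to be induced while tissue is dissociated, took 6.34% of UMIs in library 1 and 2.41% in library 2. Past 1.5-fold, 18 of 21 such genes were lower in library 2, beside 16.7% of all genes. With these UMIs counted in the totals, the 10 genes described here were all lower at higher shares of them in library 1. Cst3 was at 56287 CPM in the 62 microglia-like cells with at most 2% of such UMIs, 50615 CPM from 2 to 5%, 46039 CPM from 5 to 10% and 37141 CPM above 10%. With the early genes left out of the totals, the ends for Cst3 were 57107 and 42075 CPM. All 10 genes were then still lower above 10% than at most 2%, Ctsl going from 2263 to 2028 CPM. Lgmn did not fall steadily, at 4033, 3668, 3733 and 3529 CPM over the bins. With the early genes in the totals, Ctsc went from 519 to 279.9 CPM between the same end bins. Ctsz went from 2879.9 to 1538 CPM and Ctsd from 10599.8 to 6651 CPM. In library 2, where 1 cell was above 10%, Cst3 was at 9591, 9718 and 9835 CPM in the first 3 bins. Ctsc there went from 1390.2 to 793 CPM and Ctsz from 3815 to 2818 CPM. The part of this share in the differences between libraries was not tested beyond the cells of a common range that follow. At a share of 2 to 5%, an added check with 885 and 1007 cells, Cst3 and 4 of the cathepsins stayed past 1.5-fold. Ctsz was at a log2 ratio of 0.58, just inside. Within this range the share was 3.9% in library 1 and 3.09% in library 2, so it was narrowed and not matched.

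Cathepsin S and cystatin C had a positive correlation across microglia-like cells inside each library and a negative one over larger clusters of several classes. Across microglia-like cells, Ctss and Cst3 per 10000 UMIs had Pearson correlations of 0.393 (3101 cells) and 0.535 (1715 cells). Over 14 groups of at least 50 cells, each the cells of 1 cluster and 1 library, the value was -0.287. These groups include epithelium-like, ensheathing-glia-like, mixed and unnamed clusters, so the values come from unlike sets of cells. The other cathepsins higher in library 2 had values nearer 0 with Cst3: Ctsc had -0.024 and -0.038, and Ctsb had 0.103 and -0.146. Ctsb and Ctsd had 0.445 and 0.559. Ctsc and Ctsd had 0.082 and -0.241. Cells of a library share its preparation and each cell's values share its depth. After thinning to 1000 UMIs the Ctss and Cst3 values were 0.195 and 0.273, and no test was made.

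Over the same 14 groups, the genes whose log2 levels were most like each of the 10 were named from 9779 genes. Cst3 was most like Ecscr (Pearson 0.991) and Gp9 (0.985). Ctss was most like the macrophage pore-forming gene Mpeg1 (0.984), which was also first for Ctsb (0.970). Ctsh was most like progranulin, Grn (0.983), and the high-affinity Fc receptor Fcgr1 (0.980), and Ctsc was most like Naaa (0.979) and Tnfsf13b (0.976). Ctsz was most like the complement gene C1qa (0.973) and Ctsl like the scavenger receptor Stab1 (0.967). Ctsa and Ctsd shared Lag3 (0.966 and 0.976), and Lgmn was most like the amino acid transporter gene Slc7a7 (0.990). The groups differ both by library and by cell class. Lgmn, which barely differed between the libraries, was at 834 CPM in the epithelium-like group of library 1. The part of library and of class in each value was not tested.

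Lysosomal genes outside the 10 did not move as a block. Of 27 glycosidases, lipases and activators, 8 were past 1.5-fold higher and 2 lower in library 2, and the list's median on the log2 scale was 0.34. Over all genes, 23.4% were past 1.5-fold higher and 16.7% lower. The saposin precursor Psap was at 1629 and 4218 CPM and progranulin, Grn, at 930 and 1881 CPM. None of 15 proton pump (V-ATPase) genes passed 1.5-fold in either direction, with a median of -0.02: Atp6v0b was at 741 and 708 CPM. Of 12 sorting and TFE factor genes, only Gnptab, whose product starts the mannose 6-phosphate tag, passed (9.82 and 34.8 CPM). Tfeb, a regulator of lysosomal genes, was at 30.9 and 26.4 CPM. Of 13 membrane genes, 2 were past 1.5-fold higher, among them Cd63 at 717 and 1156 CPM.

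Other peptidases and inhibitors gave mixed results. Of 9 further lysosomal peptidases with at least 20 UMIs, 2 were higher and 1 lower past 1.5-fold in library 2. The shares over all genes were 23.4% and 16.7%. The higher ones were Scpep1, at 72.0 and 128 CPM, and Ctsk, with 9 and 23 UMIs. Within 1.5-fold, Ctsf was at 259 and 175 CPM and the tripeptidyl peptidase Tpp1 at 164 and 161 CPM. The lower one, Napsa, an aspartic protease, had 29 UMIs in library 1 and 0 in library 2, at least 7.61-fold higher in library 1 against a floor of 3 UMIs for the library. Of 7 other cystatin and serpin genes with at least 20 UMIs, 4 were past 1.5-fold higher and 1 lower in library 2. The list's median on the log2 scale was 1.03. Cst7, which encodes cystatin F, an inhibitor that acts inside the lysosome on cathepsin C among others, was at 28.5 and 204 CPM, 7.15-fold higher in library 2. Cstb, the cytosolic inhibitor, was at 201 and 216 CPM. The single genes Cst3 (secreted), Cst7 (lysosomal) and Cstb (cytosolic) thus each had a different ratio.

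Genes of class II loading and of the interferon response had the largest ratios of the lists. Of 9 class II loading genes, 8 were past 1.5-fold higher in library 2, the list having a median of 3.76 on the log2 scale, and 25 of 26 interferon and class I genes were, with a median of 2.96. The share over all genes was 23.4%. Cd74, the invariant chain that cathepsin S trims, was at 663 and 8965 CPM, H2-Aa at 54.1 and 1969 CPM, and Ciita, the class II activator, at 0.854 and 38.5 CPM. The 2.02-fold ratio of Ctss was small beside these.

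**Figure D5:**
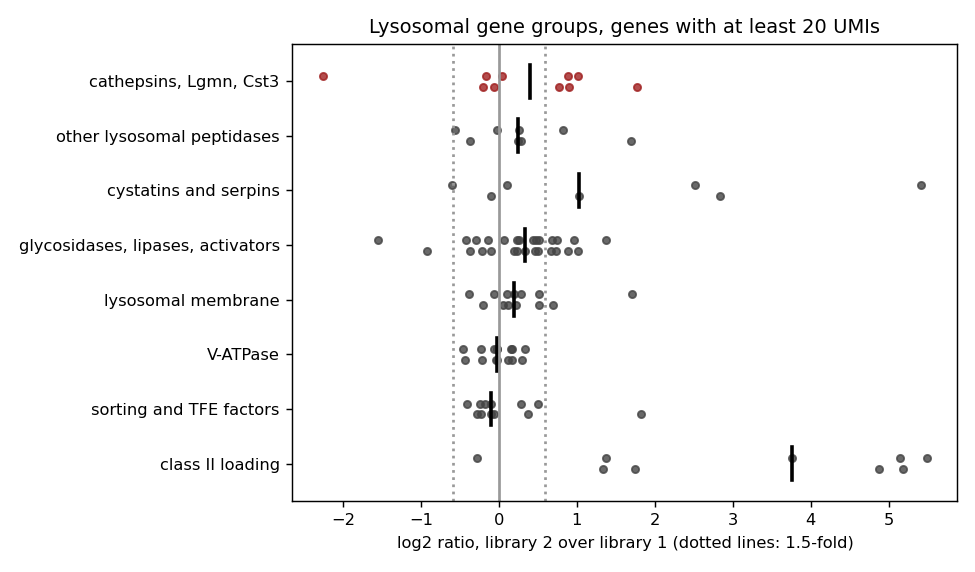
Log2 ratio of library 2 over library 1 for each gene with at least 20 UMIs in the lysosomal, inhibitor and class II lists, beside the 10 genes described here, with each list's median as a bar. Napsa, at 0 in library 2, has no ratio and is left out. V-ATPase genes sit near 0, 8 of 9 class II genes sit above the 1.5-fold line, while the 10 genes spread from -2.26 to 1.77.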

How the data were processed

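Cells of 2 pooled samples were profiled as single-cell UMI libraries. The authors deposited raw UMI counts per gene and cell, made with Cell Ranger 3.1.0 per the file headers; bcl2fastq and UMI-tools are also listed in the submitters' processing notes. The genome build is not given in the sources used. Barcodes under 200 detected genes or over 20% mitochondrial UMIs were left out (432 of 3838 in library 1, 512 of 2434 in library 2). Levels are UMIs of a gene over all UMIs of the library's kept cells, in CPM. Tools were SciPy 1.17.1 and igraph 0.11.9 under Scanpy 1.11.5, with pandas 2.3.3 and NumPy 2.4.6, in Python 3.11.15. Leiden clustering (resolution 1, 30 components, 15 neighbours, 2000 variable genes) left out 156 genes, the 10 genes and the pathway and response lists among them. Clusters were named from marker lists, and those failing this are called mixed or unnamed. Doublets were gated out in the sort, per the series' design text, and no caller was run. The ratio calculation was tested on simulated data. The genes and lists were chosen with earlier results of these data known. Named genes outside the 10 are the most abundant 3 and the most different 2 of each list (a selection of these is given), and the likest 2 per gene by Pearson correlation of log2(CPM + 10) over cluster-by-library groups of at least 50 cells; marker genes were named after their values were seen. Alternatives changed the cell filter, cells, scaling, weighting, depth, pseudocount, clustering resolution and low-count filter.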

Additional observations from a re-analysis of the deposited data

How the results depend on the processing

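Of 130 alternative values of single genes, 5 changed sign, all of Lgmn (-0.0042 to -0.0002 as log2 ratios) or Ctsa (0.0445 and 0.0648), and 1 changed side of 1.5-fold, Ctsz at 0.58 in cells with 2 to 5% early gene UMIs. The log2 ratio of Cst3 ran from -2.38 to -2.14, of Ctsc from 1.65 to 1.89 and of Ctss from 0.97 to 1.14. The monocyte-free, marker-count, early-range and member-free alternatives were chosen after seeing the data. Totals without mitochondrial, ribosomal protein and haemoglobin genes moved the median of all genes from 0.04 to 0.16, a shift that all genes of a library share. Of the sign changes, those of Ctsa at 0.0648 and of Lgmn at -0.0009 and -0.0042 come from such shared shifts. With 10 CPM added, 946 genes were past 1.5-fold higher in library 2 and 822 lower, against 3251 and 2315. No replicate could be left out, with 1 library each. No paired analysis was possible because the result comes from no test. Depth limits the shares of cells for genes seen in few thinned cells, such as Ctsc in 27.0% of library 1.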

Other observations

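A shallow cluster with 61 library 1 cells, left unnamed by the marker rule, had higher levels of most of the proteases than the microglia-like clusters. All 7 microglia markers reached 100 CPM in the cluster. Ctsd was at 17144 CPM (16457 to 17853) there, above the 7385 to 10463 CPM of the microglia-like clusters of library 1. Ctsz was at 3988 CPM (3660 to 4337), where those clusters reached 2340 CPM, and Ctsl was at 2671 CPM (2404 to 2959), where they reached 2244 CPM. Ctsa, at 1002 CPM, was also above those clusters. Ctsh (1127 CPM), Ctsb (2393 CPM) and Lgmn (4317 CPM) were above them too, with intervals that reached into their range. Cst3, at 39945 CPM, was just below the lowest of them (40880 CPM). Ctsc, at 329 CPM, and Ctss, at 5429 CPM, lay within their range. The cells' median depth was 0.309 of the library's, and the part of depth in these values was not tested.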
